A study of Macaca mulatta with 304 samples.

Results

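Whole blood RNA of rhesus macaques (Macaca mulatta) was compared between Day 6 after irradiation of the thorax and a control sample that the same animal gave 2 days before irradiation (day -2, 0 Gy). The comparison was made by pairing the Day 6 and control columns of each animal, and 24 animals had both, so that 48 of the 304 samples of the series entered it. Of these animals 12 (6 females and 6 males) received 9.8 Gy and 12 (6 females and 6 males) received 10.7 Gy, as photons from a linear accelerator. A further 4 animals given 10.7 Gy had a Day 6 sample and no control sample at hand, and their values stand apart at the end. The animals were healthy adults of the Chinese sub-strain, 3 to 5 years old per the methods. All of them were anesthetized with ketamine and xylazine, received ondansetron before irradiation and took tramadol or buprenorphine from Day 4, and blood was drawn about every 3 days. No unirradiated animals were sampled on Day 6, so irradiation cannot be told apart from these treatments, the repeated bleeding or the passing of time.

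Whole blood is a mixture of red cells and platelets, which carry leftover RNA, and of leukocytes, which carry most of the RNA that is made new. Lymphocytes, B cells above all, are among the most radiation sensitive cells of the body, whereas mature neutrophils and monocytes are short lived and are replaced from the marrow. DNA breaks stabilize p53, a transcription factor that raises genes of growth arrest and cell death. In bulk blood, fewer cells of a type and less RNA per cell cannot be told apart, and a change in the share of 1 cell type shifts the share of all others.

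Reads counted on genes ranged from 6676757 to 14609879 in the controls (median 11697185) and from 3743652 to 22069695 on Day 6 (median 13369332). In 4 animals of the 10.7 Gy group both library names carry the number S0, and the other 20 animals have higher numbers. The sources used here do not say what the number means. The S0 libraries stood apart in depth, with 3743652 to 5665059 reads on Day 6 against 10171483 to 22069695 in the others. The standard deviation of the log2 change over all tested genes was 0.78 to 1.29 in the S0 animals and 0.41 to 0.83 in the others. Results are therefore given with all 24 animals and, where it matters, with the 20 animals above S0. The change per gene also went with the GC content of its transcript, with a Spearman correlation across genes that ran from -0.58 to 0.47 in the 20 animals and from -0.65 to -0.20 in the S0 animals. The comparisons of Day 6 with control, Day 3 and Day 9, with their lists, were also computed with a per-sample correction for GC content. So were the dose and sex comparisons, but not their lists. The fits of Day 3 and Day 9 against control were made without it. Genes of the Y chromosome matched the labelled sex in the control, Day 3, Day 6 and Day 9 samples, the only days checked. The blood label held, since PTPRC, CD3E, MS4A1, CD14 and HBB were all detected, and PF4 was not analysed here.

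Of 13751 genes tested, 1584 (11.5%) changed on Day 6, 830 (6.04%) upward and 754 (5.48%) downward. A gene was said to have changed when its fold was 1.5 or more and its adjusted p was 0.05 or less in edgeR, with each animal compared with itself. With the 20 animals above S0 the count was 1392 (10.1%, with 5.82% higher and 4.31% lower), and 1265 genes were called both ways, all in the same direction. With the GC correction 10.5% of genes changed, 5.63% upward and 4.89% downward. TMM scaling gave 973 higher and 580 lower genes in place of 830 and 754, and the median over all genes moved from -0.057 to -0.001 on the log2 scale. Of all genes tested 1.67% moved the same way in 24 of 24 animals, 0.916% upward and 0.749% downward. No gene separated the controls from the Day 6 samples without overlap (0.0% of genes tested).

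The genes that rose most, among those that moved together in at least 90% of the animals, were HBA, HBB, EDA2R, C1QB, HDAC11, LPL, SELENBP1 and APOBEC3A, at log2 fold changes of 1.65 to 2.14. Those that fell most were CCDC187, SOX5, CCDC141, DENND2A, ADGRB2, CCDC154, WNT7B and ELFN2, at -2.05 to -1.65. SOX5, which encodes a transcription factor (chr11:24811802-25853531 of Mmul_10), lay at a median of 39.9 CPM in the controls, with a lowest value of 14.0. Here CPM is a gene's count scaled by library size and an upper quartile factor. On Day 6 SOX5 lay at 2.0 to 52.5 CPM with a median of 10.2. It was lower in 24 of 24 animals and below every control in 16 of them (log2 fold change -1.81 ± 0.18 SE, adjusted p = 1.2e-08 in edgeR). DENND2A fell from a median of 22.2 CPM to 5.0 CPM, also in 24 of 24 animals. HDAC11, a histone deacetylase, rose from a median of 23 CPM (3.85 to 82.1) to 72.7 CPM (8.04 to 280), in 24 of 24 animals.

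The gene lists here and below, apart from those taken from the study, were written by hand with results of these data known. Their counts are therefore descriptions and not independent evidence. Red cell genes rose in all 3 lists of that lineage. Red cells lose their nucleus late, and young ones (reticulocytes) keep the transcripts of globin, heme synthesis and the membrane skeleton for a while after they enter the blood. Of 35 tested regulators and late maturation genes of this lineage 30 rose and none fell, with a median log2 fold change of 1.08 against -0.06 over all genes. In the list of red cell membrane and skeleton genes 16 of 19 rose (median 1.24), and in the list of globin and heme synthesis 10 of 18 rose (median 0.89), with none lower in either. With the 20 animals above S0 these counts were 31, 16 and 11, and with the GC correction 30, 16 and 12. The median over each of the 3 lists was above 0 in 24 of 24 animals.

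HBB, the beta chain of adult hemoglobin (chr14:63067679-63069138), lay at 3.64 to 327 CPM in the controls (median 88). On Day 6 it lay at 8.04 to 2710 CPM (median 462), higher in 23 of 24 animals and above every control in 16. The log2 fold change was 1.98 ± 0.25 (adjusted p = 2.89e-07 in edgeR), and in the 4 S0 animals alone it was 0.83. Globin levels are those left after a depletion kit that is also designed to remove globin mRNA. HBA, an alpha globin whose reads are shared with near-identical copies and so uncertain, rose by 2.14 ± 0.23 from a median of 19.6 CPM to 80.7 CPM. AHSP, the chaperone of free alpha globin, is not such a copy and rose from 20.8 CPM (3.46 to 94.4) to 63.5 CPM (10.4 to 200), in 24 of 24 animals. ALAS2, the rate-limiting enzyme of heme synthesis in red cells, rose from a median of 4470 CPM to 9090 CPM.

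Among membrane genes SLC4A1, the anion exchanger known as band 3 (chr16:55510407-55531543), rose by 1.54 ± 0.17 from 660 CPM (53.2 to 2410) to 1370 CPM (179 to 5450). ADD2, a part of the spectrin skeleton, rose by 1.59 ± 0.20 alongside it. GYPC, SPTB and PIEZO1 did not pass the threshold, at 0.49, 0.31 and -0.01. Of the regulators KLF1, the transcription factor that switches on adult globin, rose by 1.60 ± 0.17 from a median of 40.0 CPM in the controls, in 24 of 24 animals. SELENBP1 (1.65 ± 0.18) and TSPO2 (1.57 ± 0.15) had the other large changes of the list. ZFPM1 and OSBP2 did not pass, at -0.28 and 0.06. The groups overlapped for all of these genes, and the shift recurred within animals.

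**Figure D1:**
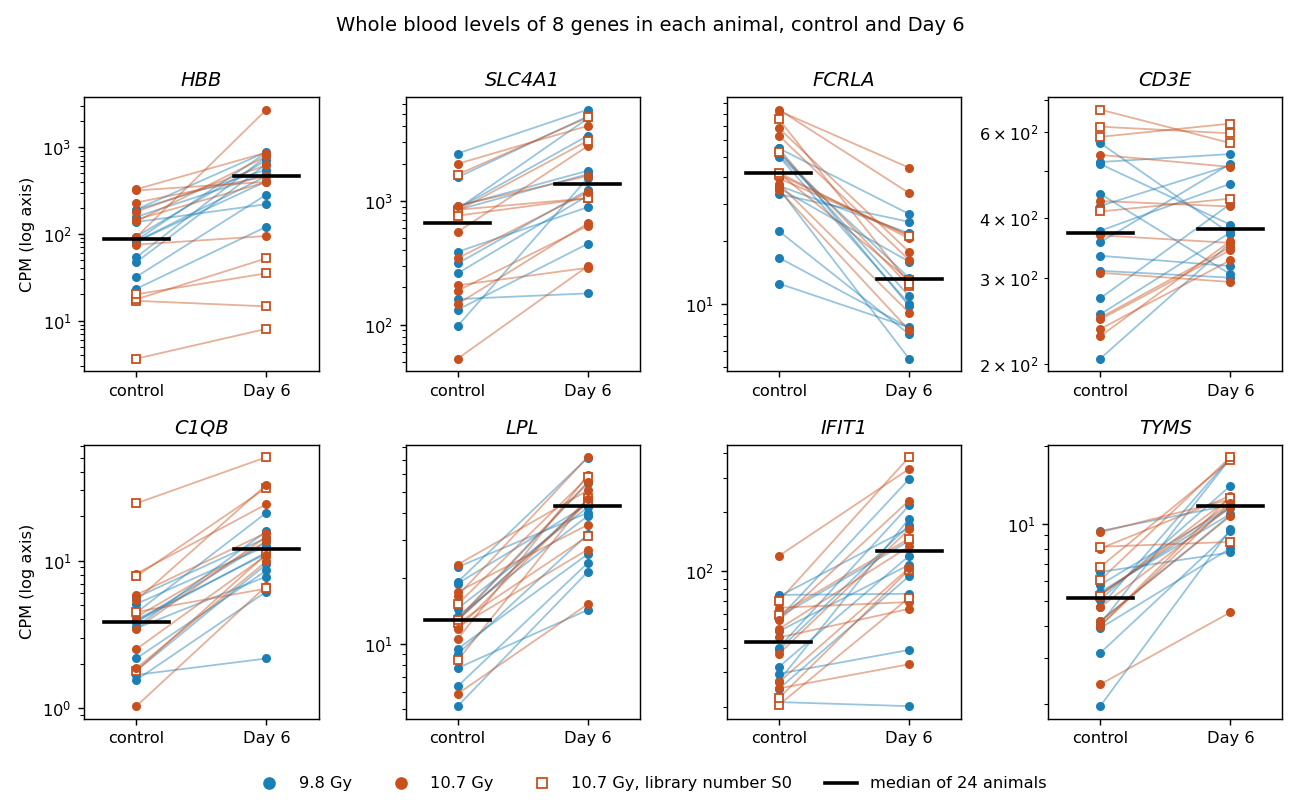
Level of 8 genes in whole blood (CPM, log axis) in the control and the Day 6 sample of each animal, with a line per animal, colored by dose, open squares for the 4 animals with library number S0 and a black bar at the median of 24 animals. HBB, SLC4A1, C1QB, LPL, IFIT1 and TYMS shift upward within nearly every animal, FCRLA shifts downward in 24 of 24, and CD3E keeps a median of 372 CPM before and 380 CPM after.

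B cell genes fell as a group. Of 27 tested genes of this list 25 fell and none rose, with a median log2 fold change of -1.21, and the list's median was below 0 in 24 of 24 animals. The count was 26 with the 20 animals above S0 and 26 with the GC correction. FCRLA, an Fc receptor-like protein made in B cells (chr1:89281207-89288914), lay at 12.5 to 84.1 CPM in the controls (median 42.1) and at 5.49 to 44.5 CPM on Day 6 (median 13.1). It fell in 24 of 24 animals, by 1.58 ± 0.13 on the log2 scale (adjusted p = 5.02e-10 in edgeR), and 11 Day 6 samples lay below every control. WNT7B, a secreted Wnt ligand, fell by 1.67 ± 0.19 in 23 of 24 animals. It is counted in this list and is also among the 8 genes that fell most, and the list was written with such results known.

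The fall reached the receptor, its regulators and the transcription factors of the lineage. CD79A and CD79B, which carry the signal of the receptor into the cell, both fell by 1.21, CD22, an inhibitory co-receptor, fell by 1.54, and PAX5, the factor that holds B cells to their identity, fell by 1.47. MS4A1, which encodes CD20, fell by 1.09 ± 0.19 to a median of 99.9 CPM. The exceptions were CR2, a complement receptor (-0.50 ± 0.07, lower in 24 of 24 animals), and STAP1 (-0.52 ± 0.18), whose changes were smaller than the fold threshold. Plasma cell genes, which mark antibody secreting cells, did not move with them. JCHAIN, the joining chain of secreted antibodies, rose by 0.68 ± 0.25 (adjusted p = 0.0282 in edgeR), the other 12 genes of that list did not pass, and its median was 0.03. JCHAIN did not pass without the S0 animals (0.38) or with the GC correction (0.48).

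T cell genes did not follow the B cell genes. None of 27 tested T cell genes passed the threshold in either direction, and their median was 0.03, which lay between -0.53 and 0.58 in the individual animals and above 0 in 14 of 24. CD3E, a chain of the T cell receptor complex, lay at a median of 372 CPM in the controls, up to 668, and at 295 to 625 CPM (median 380) on Day 6, a log2 difference of 0.13 ± 0.08 (adjusted p = 0.175 in edgeR). The lack of a call does not show that T cells were unaffected, since these are shares of a total that other genes also move. Of 22 genes of natural killer and cytotoxic cells 2 fell, beside 5.48% of all genes. They were NCR1, an activating receptor (-0.61 ± 0.12), and TBX21, the transcription factor T-bet (-0.59 ± 0.10). Both lie close to the fold threshold and were not called with the 20 animals above S0 (-0.47 and -0.51), with TMM scaling or with the GC correction. Among dendritic cell genes TCF4 (-0.87 ± 0.10) and CD1C (-0.78 ± 0.12) fell, both of which B cells also express, and BATF3, a factor of cross-presenting dendritic cells, rose by 0.68 ± 0.14.

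Monocyte and macrophage genes rose together. Of 27 tested genes of macrophages and lysosomes 13 rose (median 0.58), and of 19 monocyte genes 8 rose (median 0.53), with none lower in either list and both medians above 0 in 24 of 24 animals. LPL, lipoprotein lipase (chr8:20089661-20118617), lay at 5.16 to 23.1 CPM in the controls (median 12.8) and at 14.3 to 72.1 CPM on Day 6 (median 43). It was higher in 24 of 24 animals and above every control in 21 of them (1.66 ± 0.10, adjusted p = 9.81e-13 in edgeR). SELENOP, a secreted selenoprotein, rose from a median of 6.43 CPM to 18.7 CPM and was likewise above every control in 21 animals.

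The 3 chains of C1q, which recognizes immune complexes and dying cells and starts the classical complement pathway, are encoded side by side on chromosome 1 and rose together. C1QB (chr1:202117786-202126077) went from a median of 3.86 CPM (1.03 to 24.5) to 12 CPM (2.17 to 50.5), a log2 fold change of 1.77 ± 0.12. C1QC rose by 1.64 ± 0.12 and C1QA by 1.55 ± 0.12, and each was higher in 24 of 24 animals. Among monocyte genes MS4A7 rose by 1.25 ± 0.10, from a median of 10.7 CPM to 28.3 CPM, and CLEC7A, the receptor dectin-1, by 1.15 ± 0.13. CD14, the classical surface marker of monocytes, was at 0.36 ± 0.13 and did not pass, at up to 595 CPM in the controls and up to 501 CPM on Day 6. In the complement list 5 of 17 genes rose, led by C5 (1.29 ± 0.14) and the receptors C3AR1 (1.13 ± 0.09) and C5AR1 (0.71 ± 0.12).

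Genes of the interferon response rose in most animals but not evenly. Interferons act through a pair of Janus kinases on a complex of STAT proteins and IRF9, which binds promoters that hold repeated GAAA letters. Of 41 tested genes of the response 17 rose and none fell, with a median of 0.44, and the list's median ran from -0.59 to 1.85 in the individual animals and was above 0 in 20 of 24. The count was 13 with the 20 animals above S0 and 14 with the GC correction. At 9.8 Gy alone it was 6 and at 10.7 Gy alone 18. IFIT1, which binds foreign RNA, lay at a lowest value of 20.4 and a median of 42.7 CPM in the controls. On Day 6 it lay at 20.1 to 383 CPM with a mean of 144 ± 93.3 (SD, n = 24), higher in 23 of 24 animals (1.48 ± 0.16, adjusted p = 5.29e-08 in edgeR). RSAD2, the antiviral enzyme viperin, rose by 1.20 ± 0.18 (9.43 to 18.4 CPM at the medians). ISG15, a ubiquitin-like modifier, rose by 1.17 ± 0.24 (2.81 to 6.57 CPM). Of the complex itself STAT2 was at 0.03 and IRF9 at 0.16, and neither passed.

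The letters of the promoters are shown here because they are a feature of the raised genes that the comparison did not use. Windows from 250 bases before to 50 bases after the start of each protein-coding gene were read from RefSeq on Mmul_10 and searched on both strands. The letters GAAA, any 2 bases and GAAA again were found in 10 of the 17 raised interferon genes (58.8%), in 4 of the 24 tested members that were not called and in 3.49% of 21081 promoters. The list was made of genes known to answer interferon, so the letters describe the list and were not tested. The windows of the 3 raised holders with the largest change are given 5′ to 3′ on the gene's strand, with the matching letters of either strand in capitals. That of RSAD2 lies at chr13:101901775-101901864 (minus strand), that of ISG15 at chr1:223405142-223405231 (minus strand) and that of IFI6, an interferon-induced mitochondrial protein, at chr1:197051396-197051486 (plus strand).
RSAD2: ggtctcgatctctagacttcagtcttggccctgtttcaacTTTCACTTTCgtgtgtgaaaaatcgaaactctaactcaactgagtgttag
ISG15: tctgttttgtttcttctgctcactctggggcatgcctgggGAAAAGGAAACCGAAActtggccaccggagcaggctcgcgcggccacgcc
IFI6: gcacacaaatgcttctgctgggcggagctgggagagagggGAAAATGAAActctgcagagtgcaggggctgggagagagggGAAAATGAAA
RSAD2 holds 1 copy, and ISG15 holds 2 copies that overlap. In IFI6 there are 2 separate copies within a repeat. IFI6 rose by 1.14 ± 0.18 from a median of 75.8 CPM to 154 CPM, and it was chosen for its letters.

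A minority of the inflammatory cytokine genes changed, in both directions. Of 27 tested members 5 rose and 2 fell, beside 6.04% and 5.48% of all genes. Those that rose were led by CXCL16, a chemokine of macrophages (0.95 ± 0.10), and IL1RN, the interleukin-1 receptor antagonist (0.89 ± 0.12). The 2 that fell were CCL3 (-0.62 ± 0.15) and IL6 (-0.87 ± 0.25), and IL6 lay at a median of only 1.00 CPM in the controls and 0.435 CPM on Day 6. The CCL3 call was lost without the S0 animals (-0.50), with the GC correction (-0.54) and with TMM scaling (-0.56). No gene of the glucocorticoid responsive list (18 tested) passed, with a median of -0.11.

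Genes of DNA replication and mitosis rose. These transcripts are most abundant in dividing cells. Of 44 tested genes 21 rose and none fell, with a median of 0.57, and the list's median was above 0 in 23 of 24 animals. TYMS, thymidylate synthase (chr18:61963940-61976091), lay at 1.96 to 9.36 CPM in the controls (median 5.16) and at 4.53 to 18.1 CPM on Day 6 (median 11.7). It was higher in 24 of 24 animals and above every control in 19 (1.20 ± 0.12, adjusted p = 5e-09 in edgeR). NUSAP1, a protein of the mitotic spindle, rose by 1.19 ± 0.13 (6.06 to 14.0 CPM at the medians), and BUB1, a kinase of the spindle checkpoint, by 1.15 ± 0.14. The helicase subunits MCM3, MCM5 and MCM7 stayed at 0.06, -0.05 and -0.06 and did not pass.

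Promoters of genes that peak in mitosis are known to carry the letters TTTGAA, a cell cycle homology element, together with CCAAT boxes. TTTGAA was found in 10 of the 21 raised genes (47.6%), in 3 of the 23 not called and in 14.3% of all promoters. CCAAT was found in 14 of the 21 (66.7%), in 10 of the 23 and in 34.7% of all promoters. This list was made of genes known for replication and mitosis, so here too the letters describe the list and were not tested. The window of TOP2A, topoisomerase II alpha (chr16:51572043-51572131, minus strand), is shown as the raised gene with the largest change among those that hold both, with TTTGAA of either strand in capitals.
TOP2A: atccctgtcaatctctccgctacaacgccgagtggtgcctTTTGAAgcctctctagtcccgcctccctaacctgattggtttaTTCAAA
TOP2A rose by 1.05 ± 0.14, from a median of 12.5 CPM to 27.9 CPM. For the B cell list the letters ATTTGCAT, an octamer bound by the POU factors of lymphocytes, were in 3 of the 25 genes that fell (12%). Those 3 were CD79B, BLNK and EBF1. The octamer was in 0 of the 2 genes not called and in 1.69% of all promoters. For the red cell membrane list AGATAA, which GATA factors bind, was in 4 of the 16 raised genes (25.0%). It was in 1 of the 3 not called and in 9.44% of all promoters.
EBF1: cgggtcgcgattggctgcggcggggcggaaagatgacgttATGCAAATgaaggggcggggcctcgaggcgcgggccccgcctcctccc
The EBF1 window, of a transcription factor that founds the B lineage, lies at chr6:156519742-156519829 on the minus strand, and EBF1 fell by 1.37 ± 0.14. In the lists of red cell regulators and of globin and heme synthesis AGATAA was found in 5 of 30 and in 1 of 10 raised genes. Among the genes of these lists not called it was in 0 of 5 and in 1 of 8. The B cell and red cell lists were likewise chosen by known function, so their letters describe the lists and were not tested.

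The p53 targets, a usual readout of radiation in blood, were slightly higher on Day 6 in nearly every animal, but few passed the fold threshold. Of 29 tested targets 3 rose and none fell, beside 6.04% and 5.48% of all genes. The list's median was 0.24 against -0.06 over all genes. It lay between -0.04 and 0.50 in the animals and above 0 in 23 of 24. EDA2R, a death receptor family member on the X chromosome (chrX:63547115-63592375), lay at 0.00 to 1.28 CPM in the controls (median 0.619) and at 0.744 to 6.14 CPM on Day 6 (median 2.31). It was above every control in 21 animals (1.95 ± 0.22, adjusted p = 7.51e-08 in edgeR). GADD45A, a stress protein of growth arrest, rose by 0.84 ± 0.11, in 22 of 24 animals, and RPS27L was the third that rose (0.69). CDKN1A, the cell cycle inhibitor p21, was at 0.44 ± 0.06, below the fold threshold though higher in 22 of 24 animals, with medians of 46.6 and 66.1 CPM. MDM2, which degrades p53, was at 0.24 ± 0.11 and FDXR at 0.07 ± 0.08. Of 35 DNA repair genes 3 rose and none fell, beside those same shares of all genes, and the list's median was -0.05. The 3 were NBN (1.21 ± 0.18), BRIP1 (1.06 ± 0.15) and BRCA2 (0.81 ± 0.14).

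The neutrophil and platelet lists varied widely between animals, with SDs of the list's change of 0.88 (mature neutrophil), 0.72 (granule) and 0.79 (platelet), beside 0.61 for red cell membrane genes and 0.56 for B cell genes. The median of the mature neutrophil list ran from -1.29 to 2.09 over the animals, with 8 of 20 genes raised and 1, ALPL, lowered. S100P, a calcium binding protein, rose by 1.16 ± 0.19. Of 14 tested genes of neutrophil granules 4 rose, with AZU1 (1.13 ± 0.18) and RETN (0.91 ± 0.17) the largest, and LTF did not pass at -0.16. The platelet list ran from -1.28 to 1.76 over the animals and 3 of 25 genes rose, beside 6.04% of all genes. These were GNG11 (1.03 ± 0.17), PPBP (0.94 ± 0.13) and CLEC1B (0.88 ± 0.15). PPBP, a chemokine precursor stored in platelets, lay at 303 to 2620 CPM in the controls (median 959) and at 719 to 6160 CPM on Day 6 (median 1870). With the 20 animals above S0 there were 7 raised platelet genes in place of 3 and 5 raised mature neutrophil genes in place of 8, and the fall of ALPL was no longer called.

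Ribosomal protein genes are given beside these because their change went with that relation to GC content. Of 53 tested members 5 rose, beside 6.04% of all genes, with a median of 0.37. The count was 1 without the S0 animals, 6 with the GC correction (median 0.36), 0 at 9.8 Gy and 14 at 10.7 Gy. The list's median lay between -1.07 and 1.51 in the animals. RPS24 (1.10 ± 0.33) changed by -1.97 to 3.86 in the individual animals. The ribosomal list's median had a Spearman correlation of -0.72 over the 24 animals with the animal's relation of change to GC content, and the platelet list 0.70. The B cell list had 0.42, the interferon list -0.20, the mitosis list -0.41 and the red cell regulators 0.13, all as descriptions over animals that share these libraries. With the GC correction 5 platelet genes rose in place of 3, with a median of 0.34 in place of 0.30. The part of GC content in these results was not tested beyond the corrected counts given here. Among the remaining lists, 1 of 13 eosinophil and basophil genes rose, ALOX15 (0.64 ± 0.15), beside 6.04% of all genes. The list's median was 0.04. No gene of that list was called at 9.8 Gy or at 10.7 Gy alone. In the hypoxia list 2 of 26 genes rose, MXI1 (0.90 ± 0.09) and ADM, beside 6.04% of all genes. Of 16 tested clock genes 1 fell, beside 5.48% of all genes. It was BHLHE41, a clock repressor, which fell by 1.10 ± 0.11. The other 15 tested clock genes did not pass, and none of 9 blood progenitor genes did.

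**Figure D2:**
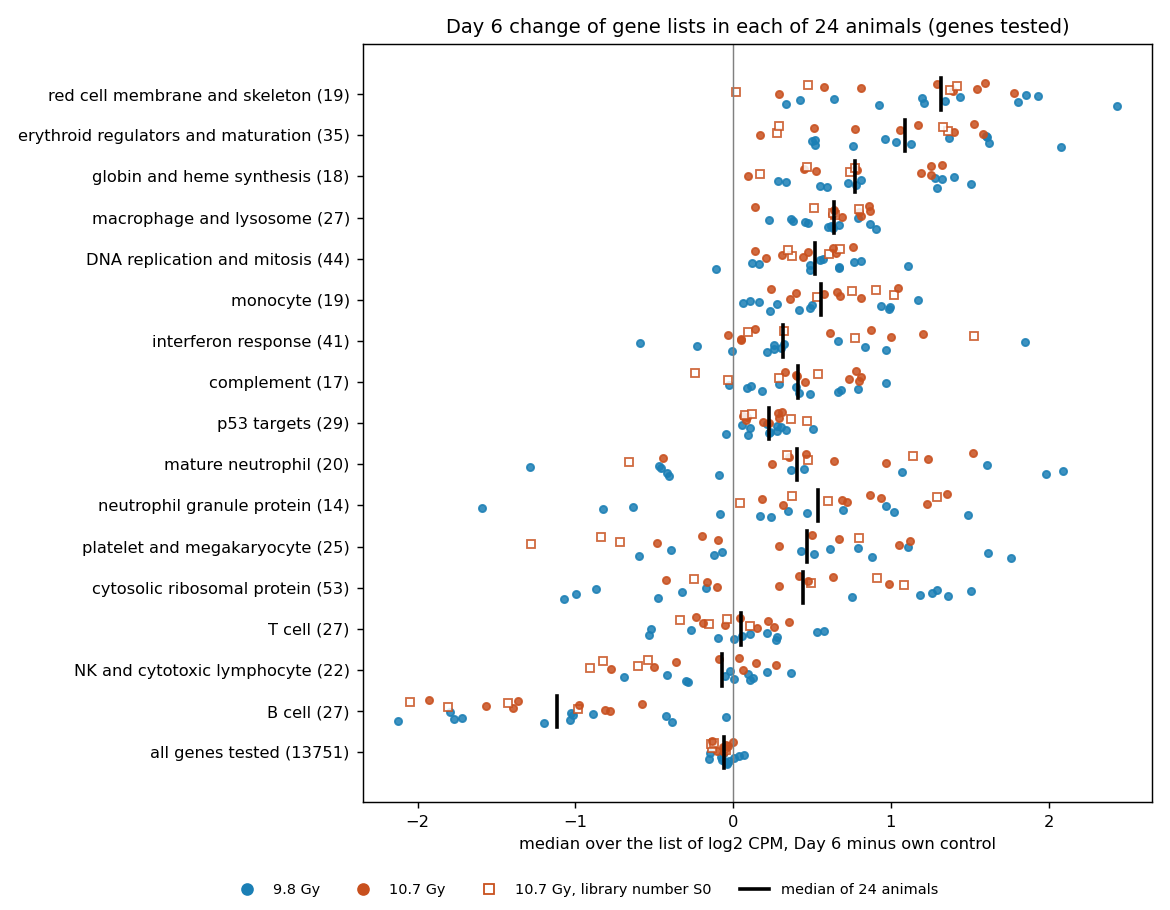
Change of 16 gene lists and of all genes tested between the control and Day 6 in each of 24 animals, as the median over the list's tested genes of log2 CPM on Day 6 minus that of the animal's own control. Points are animals, colored by dose, open squares mark library number S0, and black bars are medians over animals. The 3 red cell lists, the macrophage list and the monocyte list lie above 0 in 24 of 24 animals, the B cell list lies below 0 in 24 of 24, and the neutrophil, platelet and ribosomal lists spread to both sides.

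Transcripts of tissues in the irradiated field were sparse. The summed level of 15 lung and airway genes was 17.7 to 77.8 CPM in the controls and 9.05 to 36.3 CPM on Day 6, higher on Day 6 in 7 of 24 animals, and SFTPA1 and NKX2-1 were at 0 in all 48 samples. Of the 4 lung genes that passed the filter CDH1 rose (1.01), SFTPB (-0.64 ± 0.14) and AGER (-0.73 ± 0.17) fell, and KRT18 did not pass. SFTPB and AGER were not called with the 20 animals above S0 (-0.57 and -0.54), nor was SFTPB with the GC correction (-0.58). The lung list's change had a Spearman correlation of 0.68 over the 24 animals with the animal's relation of change to GC content. Skin genes summed to 20.9 to 41 CPM on Day 6 and none of 3 tested passed, with KRTDAP at 0 throughout. Of the endothelial and fibroblast list, TEK, the angiopoietin receptor, rose from a median of 0.761 CPM to 2.06 CPM (1.37 ± 0.20), while 9 of its 14 members did not pass the filter on low counts.

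At the lower dose (9.8 Gy, 12 animals) 1117 genes (8.12%) changed, 4.99% of those tested upward and 3.13% downward, and at the higher dose (10.7 Gy, 12 animals) 2129 genes (15.5%) changed, 7.23% upward and 8.25% downward. Without the 4 S0 animals, which all belong to the higher dose, the second count was 1527. Both doses shared 830 called genes, which are 74.3% of the lower dose's and 39% of the higher dose's, and all of them had the same direction. The test of the difference between doses called 0 of 13751 genes in edgeR (0.0%), with a lowest adjusted p of 0.671. At an unadjusted p below 0.05 there were 1010 genes, 228 without the S0 animals, and DESeq2 called 0 as well (1198 unadjusted). A difference between doses was therefore not detectable, which does not show that the doses acted alike.

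Side by side, FCRLA was at -1.54 ± 0.20 at 9.8 Gy and -1.62 ± 0.15 at 10.7 Gy, LPL at 1.58 ± 0.12 and 1.74 ± 0.14, and IFIT1 at 1.47 ± 0.25 and 1.49 ± 0.19. HBB was at 2.53 ± 0.25 and 1.37 ± 0.31, a difference of -1.17 ± 0.43 (adjusted p = 0.671 in edgeR). BATF3 was at 0.25 ± 0.17 and 1.11 ± 0.18, a difference of 0.86 ± 0.24 with the same adjusted p. The platelet list had a median of 0.54 at 9.8 Gy and 0.03 at 10.7 Gy, and the neutrophil granule list 0.24 and 0.85. Of 41 interferon genes 6 rose at 9.8 Gy and 18 at 10.7 Gy, beside 4.99% and 7.23% of all genes. For the 20 mature neutrophil genes it was 1 and 10, and for the 25 platelet genes 10 and 3. The S0 libraries fall in the 10.7 Gy group alone, and their part in these differences was not tested list by list. The study had named 17 genes for dose on Day 6. Of the 16 tested here 6 rose and 6 fell against control, C1QB, LPL and C1QC with the largest changes. Of 19 genes it had named for survival on Day 6, 9 rose and 2 fell, with LOC703641 (1.34 ± 0.12), DNAJC6 (1.22 ± 0.15) and TYMS at the top. These counts were 6 and 1 with the GC correction and 10 and 0 with TMM scaling. Both lists were chosen on these samples and are no independent evidence. The study's models included controls as a class, and it reported significant predictions of dose and survival only for pooled days, not for Day 6 alone.

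Females and males were compared in the same way. In females alone 1224 genes changed and in males alone 1590. The test of the difference called 0 of 13751 genes in edgeR (0.0%), with 97 genes at an unadjusted p below 0.05, and 0 in DESeq2 (164 unadjusted). FCRLA differed between the sexes by 0.29 ± 0.26 and HBA by 1.04 ± 0.41, female minus male, neither past the threshold.

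Day 6 was next set against Day 3 in the same 24 animals, which asks what had already passed by then. Here 328 genes differed (2.39%), of all tested 0.836% higher and 1.55% lower on Day 6. Without the S0 animals 1.86% differed (0.713% higher, 1.15% lower) and with the GC correction 1.93% (0.56% higher, 1.37% lower). Platelet genes were lower in 20 of 25 cases, the largest share of any list, with a median of -0.73 against -0.01 over all genes. It was 17 of 25 without the S0 animals and 17 with the GC correction. MYL9, a myosin light chain of platelets, lay at 66.4 to 296 CPM on Day 3 (median 127) and at 8.93 to 263 CPM on Day 6 (median 41.7), lower in 24 of 24 animals (-1.56 ± 0.15, adjusted p = 3.01e-08 in edgeR). TUBB1, the tubulin of platelets, was at -1.14, and GP1BB, part of the receptor for von Willebrand factor, was at -1.07. SYNGR4 (-1.52 ± 0.16) and PTCRA (-1.39 ± 0.18) were in no list and were also among the 5 lowest. GFI1B, a factor that red cells and megakaryocytes share, was at -1.08, while SELENBP1, TSPO2, TRIM58 and BNIP3L of the same list were higher on Day 6 than on Day 3.

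The C1q chains had been higher still on Day 3. C1QA lay at 10.4 to 152 CPM on Day 3 (median 26.6) and at 2.61 to 48.6 CPM on Day 6 (median 8.57), lower in 24 of 24 animals (-1.63 ± 0.12, adjusted p = 1.19e-10 in edgeR). C1QC was at -1.62 ± 0.12 and C1QB at -1.29 ± 0.13, and 7 of 27 macrophage genes were lower. Of the p53 targets 4 of 29 were lower on Day 6, CDKN1A, PHLDA3, EDA2R and DDB2. CDKN1A fell from 151 CPM on Day 3 (70.0 to 257) to 66.1 CPM on Day 6, in 24 of 24 animals (-1.15 ± 0.08, adjusted p = 1.24e-11 in edgeR). The genes that were higher on Day 6 were led by SLC28A3, a nucleoside transporter (2.43 ± 0.21, 24 of 24 animals), ENTPD3 (1.35 ± 0.20), the neutrophil proteins S100A12 (1.34 ± 0.30) and TNFAIP6 (1.27 ± 0.15), and CLTCL1 (1.24 ± 0.18). Of mature neutrophil genes 7 of 20 and of granule genes 4 of 14 were higher. None of 27 B cell genes and none of 41 interferon genes differed between Day 3 and Day 6. SLC28A3 had been lower on Day 3 than in the controls (-1.63) and was above them on Day 6 (0.86 ± 0.30), though this last call was lost without the S0 animals.

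**Figure D3:**
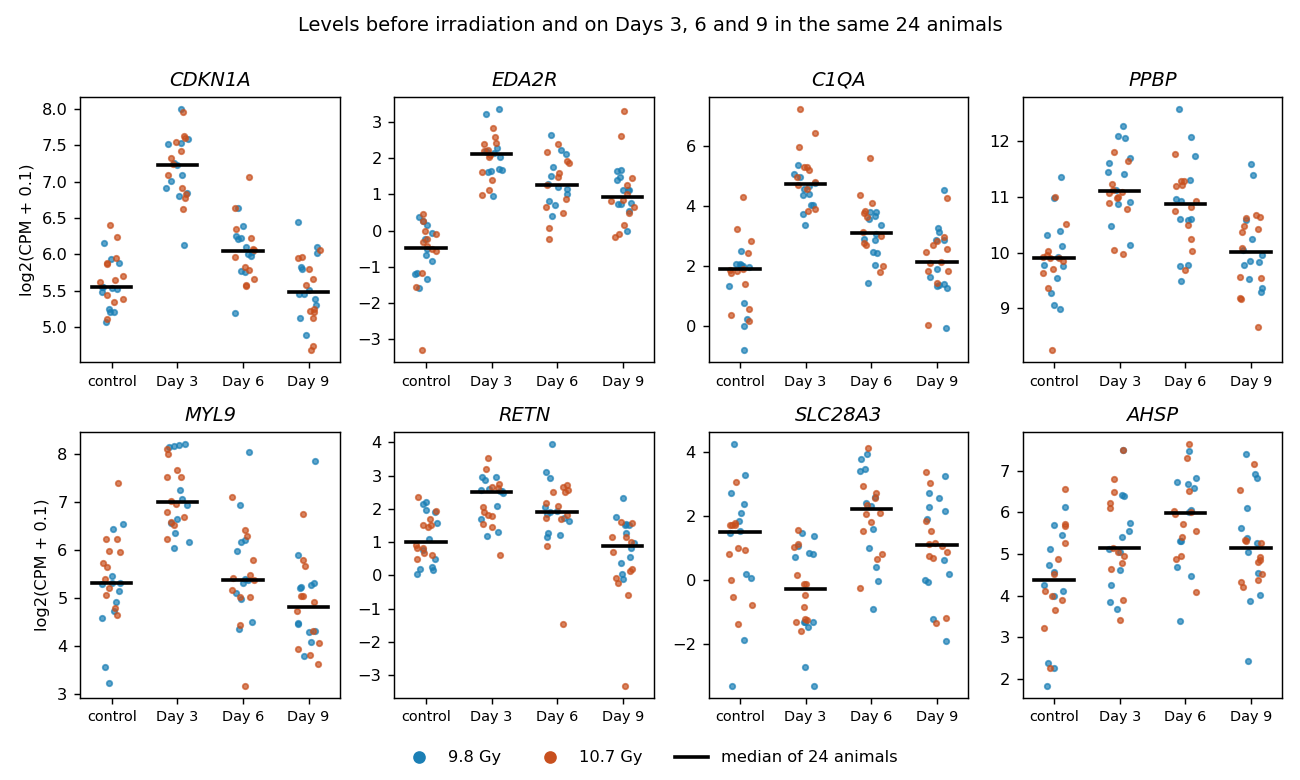
Levels of 8 genes as log2(CPM + 0.1) in the control and on Days 3, 6 and 9 in the same 24 animals, with points colored by dose and bars at the medians. CDKN1A, EDA2R, C1QA and MYL9 are highest on Day 3 and lower on Day 6, SLC28A3 is lowest on Day 3, and AHSP has its highest median on Day 6.

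Day 6 and Day 9 were compared in 28 animals, which include the 4 without a control sample. There were 632 genes (4.60%) that differed, 1.51% of those tested higher and 3.09% lower on Day 6, a split that TMM scaling turned into 312 higher and 269 lower genes. Without the S0 animals 4.04% differed (1.43% higher, 2.62% lower) and with the GC correction 3.75% (1.61% higher, 2.14% lower). Platelet genes were higher on Day 6 than on Day 9 in 17 of 25 cases (median 0.69). It was 18 of 25 without the S0 animals and 16 with the GC correction. PPBP was at 719 to 6160 CPM on Day 6 in the 24 animals (median 1870) and at 404 to 3110 CPM on Day 9 (median 1030), a difference of 0.79 ± 0.12. CLEC1B, a receptor of platelets, was at 0.88 ± 0.11. Of granule genes 7 of 14 were higher on Day 6 than on Day 9, RETN by 1.20 ± 0.19, and of mature neutrophil genes 8 of 20. All 3 C1q chains were higher on Day 6 (0.82 to 0.89), with 6 of 27 macrophage genes called. TPPP3 (1.11 ± 0.15), MAP3K7CL (1.10 ± 0.15), PLCB4 (1.01 ± 0.25) and MBOAT2 (1.0 ± 0.16) had the other large differences upward. Downward, PLEKHG7 (-1.21 ± 0.19), IL17RB (-1.10 ± 0.20), FZD6 (-1.0 ± 0.20) and CCDC181 (-1.0 ± 0.21) were lower on Day 6 than on Day 9, all of them at medians of at most 2.42 CPM on either day. Of 27 B cell genes 2 were lower on Day 6, FCRL1 (-0.65) and EBF1 (-0.67), beside 3.09% of all genes. FCRLA was at -0.13 ± 0.06.

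The fits of Day 3 and Day 9 against control were run with all animals and without the GC correction only. Against the shared controls, the list medians on Days 3, 6 and 9 were 0.78, 1.08 and 0.83 for the red cell regulators and 0.99, 0.58 and 0.24 for the macrophage list. They were 1.14, 0.30 and -0.45 for platelets, -0.01, 0.48 and -0.08 for neutrophil granules, and -1.20, -1.21 and -0.73 for B cells. The mitosis list had 0.35, 0.57 and 0.42, the interferon list 0.52, 0.44 and 0.42, and T cells 0.01, 0.03 and 0.06. CDKN1A was at 1.59 on Day 3, 0.44 on Day 6 and -0.09 on Day 9, whereas EDA2R was at 2.72, 1.95 and 1.65.

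**Figure D4:**
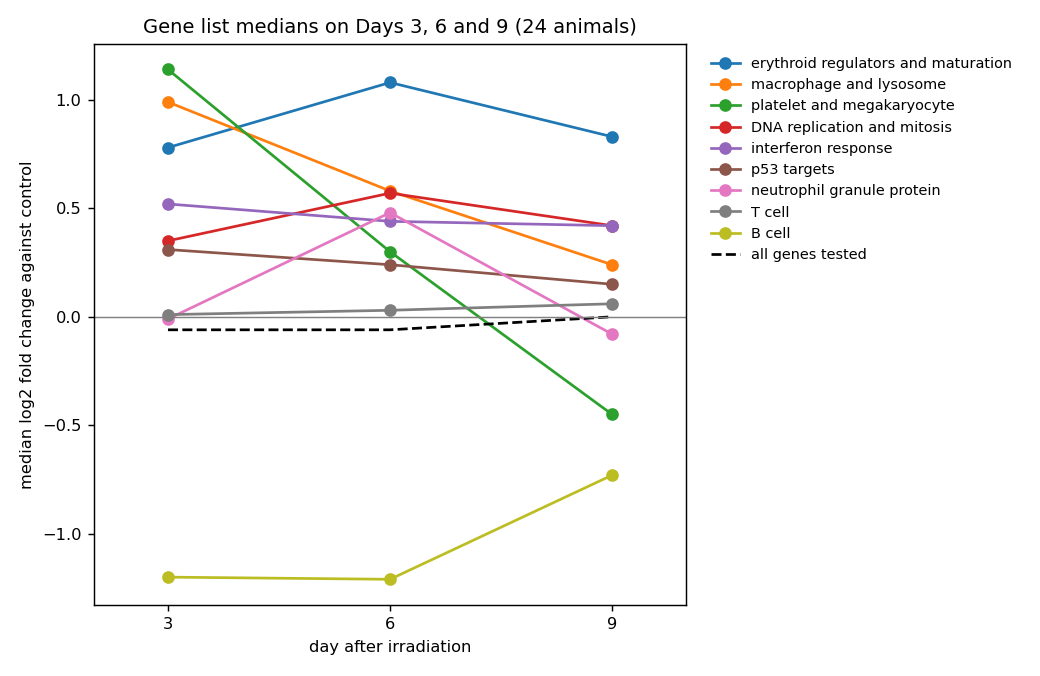
Median log2 fold change against control of 9 gene lists and of all genes tested (dashed) on Days 3, 6 and 9 after irradiation, in 24 animals with the same control samples for the 3 days. The platelet list falls from 1.14 to -0.45, the macrophage list from 0.99 to 0.24, the neutrophil granule list is high on Day 6 alone among these days, and the B cell list stays near -1.20 until Day 6.

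The 4 animals at 10.7 Gy with a Day 6 sample and no control give levels only. Their FCRLA levels were 7.46 to 10.8 CPM, below every control of the other animals. IFIT1 reached 775 CPM, and it and SLC4A1 and TYMS were above every control in 4 of 4. SLC4A1 lay at 2450 to 7040 CPM and TYMS at 9.5 to 13.1 CPM. LPL was above every control in 3 of 4, at 22.9 to 57.3 CPM. HBB was at 244 to 1100 CPM and C1QB at 11.1 to 41.3 CPM, within the range of the other Day 6 samples in 4 of 4.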

How the data were processed

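RNA from whole blood was depleted of ribosomal RNA and sequenced as stranded libraries by the authors, who trimmed reads with cutadapt 2.10, aligned them with STAR 2.7.6a to Mmul_10 and counted them per gene with Subread 2.0.1, per the submitters' processing notes. Whether counting used strand is not given in the sources used here, so overlapping and antisense genes are uncertain. The authors deposited raw counts of 21070 genes and a table of normalized log2 values of 16730 genes, and 0 sample columns remained unmapped.

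From the counts, libraries were scaled by the upper quartile and tested with edgeR 4.0.16 (quasi-likelihood, two-sided) in R 4.3.3, with a term for each animal (the block), and p-values were adjusted by Benjamini-Hochberg over the 13751 genes with at least 3 counts in 80% of the 304 samples. Calls needed a fold of 1.5 or more and an adjusted p of 0.05 or less. CPM are counts scaled by library size and an upper quartile factor computed over all 304 samples. Errors are SE unless given as SD. For fold changes the SE is the absolute log2 fold change divided by the root of the edgeR F statistic. Pairing came from the animal names in the labels. Own pairs correlated at -0.01 to 0.61 in their deviations from the group means (median 0.42), above 0.1 in 22 of 24 animals. Each animal gave 1 sample per day, so p-values measure the spread between animals.

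Named genes were the 8 highest and 8 lowest called genes moving together in at least 90% of animals, up to 3 called genes per list, 5 each way against Day 3 and Day 9, and CDKN1A, MDM2, FDXR, CD3E, CD14, PF4 and HBB. Other genes were named after their values were seen, and some genes that the rule picked are not reported here. The comparison, its lists and its tests were chosen with earlier results of these data known.

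Alternatives were TMM scaling, DESeq2 1.42.0, limma 3.58.1 on the deposited log2 values, other filters, no animal block, subsets of libraries, each sex, and each animal left out. The GC correction, a per-sample spline with 5 degrees of freedom, was added after seeing the data, as were the S0 exclusions within the dose and sex comparisons and TMM scaling without S0. On simulated counts for Day 6 versus control without a GC trend, edgeR recovered 198 of 200 genes changed 2-fold. With a simulated GC trend, edgeR without the GC correction, as in the main fit, recovered 190 of 200 and called 146 unchanged genes. With the correction it recovered 199 and called 0 unchanged genes. The simulated trend held a slope of the same sign in every Day 6 sample beside a random one. In the 20 animals above S0 the relation to GC content ran from -0.58 to 0.47 (median -0.06). The 146 calls are therefore no estimate of false calls in the main fit. For the dose difference, simulated at 3-fold without a GC trend, edgeR recovered 192 of 200, and 10.6% of the DESeq2 calls were false. Promoter letters came from RefSeq on Mmul_10.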

Additional observations from a re-analysis of the deposited data

Results flagged for a closer look

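Levels differed between days in 328 genes when Day 6 was tested against Day 3 (24 animals) and in 632 genes when Day 6 was tested against Day 9 (28 animals, 4 of them without a control sample), in edgeR with the animal as a block. They are listed because the level of the same animals differed between days by a test of the difference itself. Platelet genes were among them on both occasions, lower on Day 6 than on Day 3 in 20 of 25 cases and higher on Day 6 than on Day 9 in 17 of 25.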

How the results depend on the processing

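For Day 6 versus control, the count of 1584 genes was 1227 to 1911 under other scalings, tests, filters and values, 1392 without the 4 S0 animals, 1224 in females, 1590 in males and 1446 with the GC correction. Leaving out each animal gave 1487 to 1757. Without the animal block it was 1581. In the 4 S0 animals alone it was 3786 (27.5% of genes tested). Against Day 3 the S0 animals alone gave 2874 genes (20.9%) in place of 328, leaving out each animal gave 295 to 375, and the fit without the block gave 263. Against Day 9 they gave 7.31% of genes in place of 4.6%, leaving out each animal gave 578 to 727, and without the block there were 606. The cause was not tested. The fit without the block gave 866 genes at 9.8 Gy and 1920 at 10.7 Gy. The share of higher genes moved from 52.4% to 62.7% with TMM scaling and to 62% with DESeq2. For Day 9 it moved from 32.8% to 53.7% and 52.2%, and at 10.7 Gy from 46.7% to 59.3%. The dose and sex differences called 0 genes under every alternative run. Genes under about 1 CPM rest on few reads in the S0 libraries.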
